A study of Mus musculus with 11 samples.

Results

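MHC class I antigen presentation was followed here through 7 genes, chosen by name: the classical class I heavy chains H2-K1 and H2-D1, their light chain B2m (beta-2 microglobulin), the peptide transporter subunits Tap1 and Tap2, the loading chaperone Tapbp (tapasin), and the transactivator Nlrc5. All 7 were found among the 18269 genes of the deposited expression table, and the rule that names them uses no measured value, although earlier results of these data were known when they were chosen. The table came from RNA sequencing of the tibialis anterior, a hindlimb muscle, of C57BL/6 mice aged 21 to 24 months. The study compared what young serum, and young serum depleted of extracellular vesicles (EVs), did to aged muscle. The 11 libraries fell into 3 groups by what was injected: saline (replicates 2, 3, 4 and 6), young serum (replicates 1, 2, 3 and 4) and EV-depleted young serum (replicates 2, 3 and 4). All groups shared the strain, the age range and the muscle, and the labels refer to an injury model without giving its timing, the serum schedule or the sex of the mice. No uninjured or young muscle was analysed here, so every level below is one of aged muscle in this model. The labels do not say whether each library came from its own mouse, so the p-values measure the spread between these libraries, which may be partly technical.

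Class I molecules show peptides from inside a cell to CD8 T cells and are read by NK cells. The proteasome cuts proteins into peptides, the Tap1 and Tap2 heterodimer pumps them into the endoplasmic reticulum, tapasin holds an empty heavy chain with its beta-2 microglobulin beside the transporter until a peptide binds, and the loaded complex moves to the cell surface. Interferons raise most genes of this route, in part through Nlrc5, which is brought to class I promoters by the factors bound to a shared group of elements that includes the X2 and Y boxes. Healthy muscle fibres carry little class I on their surface, leukocytes and endothelial cells carry much, and fibres of inflamed muscle can gain it.

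The promoters of these genes were compared first, because the shared elements are what links the heavy chains to B2m. RefSeq windows on GRCm38.p6, from 250 bases before to 50 bases after each transcript start, matched 5 of the 7 genes (H2-K1, H2-D1, B2m, Tap1 and Tapbp). Each set below is read 5′ to 3′ on the gene's own strand. The first set gives 30 bases in which TGACG, the core of the X2 box, is followed after 20 bases by ATTGG, both in capitals. ATTGG is the reverse complement of the Y box's CCAAT. The same stretch of Tap1 is given from its own TGACG.
H2-K1: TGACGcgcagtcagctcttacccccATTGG
H2-D1: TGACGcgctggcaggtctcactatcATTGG
B2m: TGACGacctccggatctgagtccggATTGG
Tap1: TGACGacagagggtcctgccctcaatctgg
The H2-K1 stretch lies at chr17:34000359-34000388, minus strand, and begins 41 bases before the RefSeq start. The H2-D1 stretch lies at chr17:35262993-35263022, plus strand, and begins 101 bases before the RefSeq start, which puts it inside the longer H2-D1 gene span of the GENCODE annotation. The B2m stretch lies at chr2:122147609-122147638, plus strand, and the Tap1 stretch at chr17:34187470-34187499, plus strand, beginning 78 and 86 bases before their starts. The search fixed the motifs at both ends of the H2-K1, H2-D1 and B2m stretches. At the 20 positions between them, H2-K1 and H2-D1 had the same base at 13, H2-K1 and B2m at 3 and H2-D1 and B2m at 2, while Tap1 shared 8 with B2m, 4 with H2-D1 and 3 with H2-K1. TGACG with ATTGG after 20 bases, searched on both strands, was found in 31 of all 32851 windows (0.0944%), and H2-K1, H2-D1 and B2m were among them. Neither motif is rare alone: TGACG was in 20.8% and CCAAT in 37.4% of all windows, both strands counted, and each ATTGG above is also one of those CCAAT matches.

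Longer stretches of the H2-K1 and B2m promoters are shown because each holds a further motif beside the X2 and Y boxes. In H2-K1 the capitals mark, in order, an NF-kB motif (the first run of capitals, searched with exactly those letters), TGACG and ATTGG. In B2m they mark an interferon-stimulated response element (GAAA, any 2 bases, GAAA), TGACG and ATTGG.
H2-K1: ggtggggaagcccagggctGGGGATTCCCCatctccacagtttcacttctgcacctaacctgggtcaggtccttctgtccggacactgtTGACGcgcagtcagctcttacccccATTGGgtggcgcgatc
B2m: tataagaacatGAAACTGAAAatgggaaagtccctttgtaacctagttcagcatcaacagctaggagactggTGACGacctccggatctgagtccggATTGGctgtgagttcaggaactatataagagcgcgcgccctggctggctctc
The H2-K1 stretch is chr17:34000348-34000477, minus strand, and the B2m stretch is chr2:122147537-122147685, plus strand, both on GRCm38.p6. The NF-kB motif, searched on both strands, was found in 10 of 32851 windows (0.0304%), among them those of H2-K1 and H2-D1. The exact pattern given above for the response element, also searched on both strands, was found in 3.44% of windows. Of the 5 genes here, B2m alone held it. Looser forms of the element were not searched, so the other promoters may hold one. The Tapbp window held CCAAT on the reverse strand and none of the other motifs, and the Tap1 window held TGACG and CCAAT without the paired spacing. A match describes the letters of the window only.

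Expression is given in CPM (reads of a gene per 1000000 reads of its library), which the authors deposited per library, over sequencing depths of 36.4 to 42.3 (in units of 1000000 reads, recovered from the steps between low values). The tissue label was met by the markers: Acta1 and Ckm, the actin and creatine kinase of skeletal muscle fibres, were among the most abundant transcripts of every library (26113 to 38992 CPM for Acta1 and 21890 to 39378 CPM for Ckm). Saline replicate 4 stood apart from the other 10 libraries and saline replicate 6 did so to a lesser degree. The adipocyte markers Adipoq, Plin1, Fabp4, Cidec, Lep, Cfd and Retn summed to 5671 CPM in saline replicate 4 against 101 to 515 CPM elsewhere. The leukocyte markers Ptprc, Coro1a, Laptm5, Cd53, Cd52 and Rac2 summed to between 9.55 and 24.6 CPM in 9 libraries, but to 65.9 CPM in saline replicate 6 and 267 CPM in saline replicate 4. The differences of the 7 genes from saline, and the medians of the gene lists other than the cell type markers, are therefore given with and without saline replicate 4. Counts of list genes or markers by direction include that library unless it is said to be left out. In bulk muscle, a change in the number of cells of one type and a change in RNA per cell cannot be told apart.

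All 7 genes were measured above the filter of at least 1 CPM in at least 3 libraries, which kept 13187 genes. All 7 were highest of 11 libraries in saline replicate 4, where they stood 2.24-fold (Tapbp) to 5.15-fold (Nlrc5) above the mean of the other saline libraries. Of all genes tested, 33.8% were highest in that library and 12.5% stood at least 2-fold above the mean of the other saline libraries there. Without it, the 10 remaining libraries spanned 1.26-fold for Tapbp, 1.72-fold for Tap2, 2.31-fold for H2-K1, 2.32-fold for B2m, 2.88-fold for Nlrc5, 2.96-fold for H2-D1 and 3.74-fold for Tap1. Tapbp was thus the most even of the 7 genes and Tap1 the most variable.

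**Figure D1:**
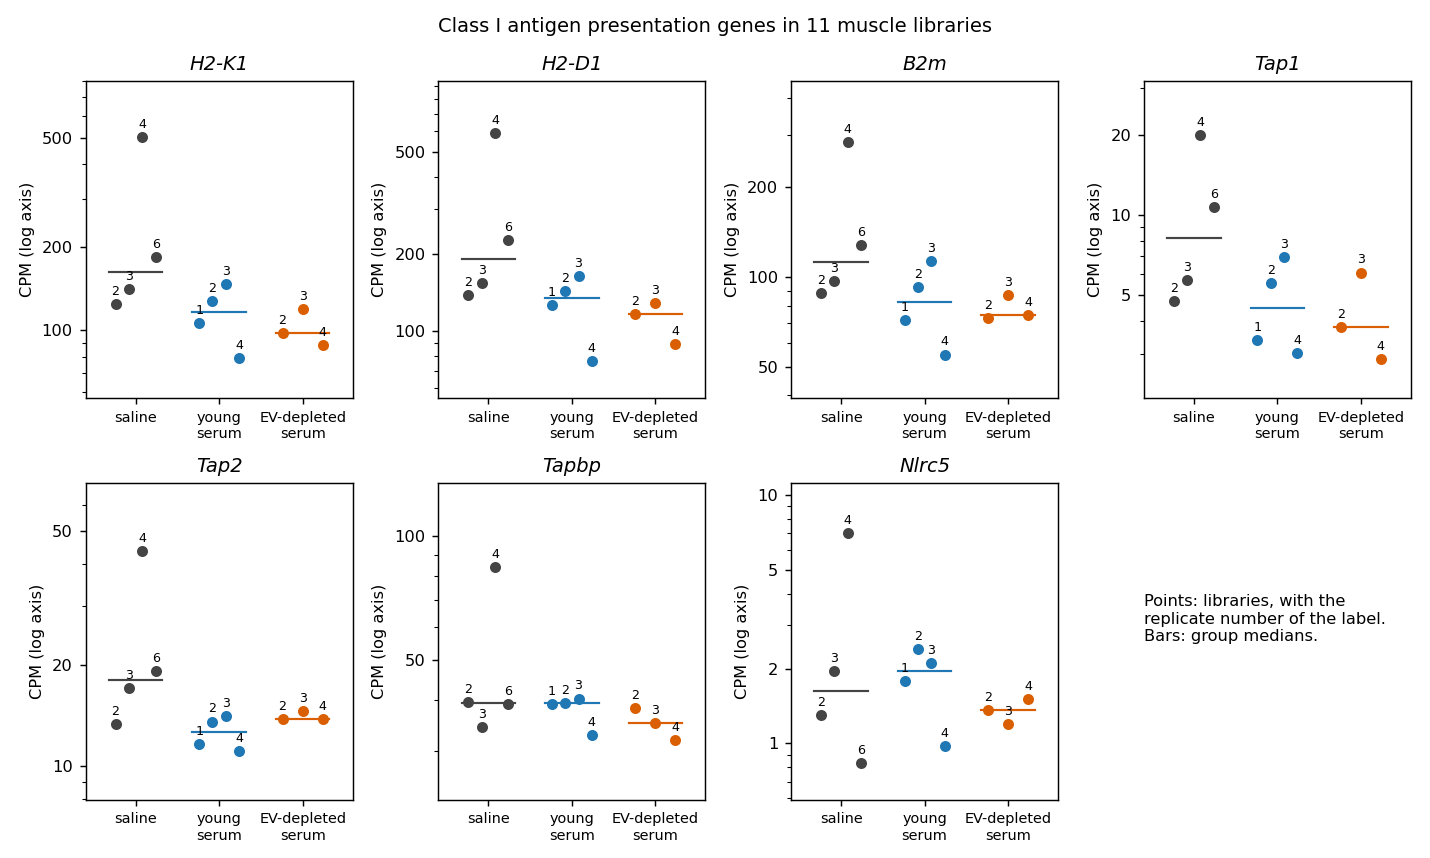
CPM of the 7 class I genes on log axes, 1 panel per gene, with 1 point per library labelled by its replicate number and a bar at the median of each group. Saline replicate 4 is the highest point of every panel, young serum replicate 4 is the lowest for H2-K1, H2-D1, B2m and Tap2, and saline replicate 6 is the lowest for Nlrc5.

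H2-K1 encodes the K heavy chain, which binds the peptide and is read by CD8 T cells. The gene lies on chromosome 17 of mm10 at 33996017 to 34000347, minus strand, within the MHC, and its principal transcript has 8 exons. H2-K1 stood at 125, 141, 501 and 184 CPM in saline replicates 2, 3, 4 and 6, at 106, 128, 148 and 79.7 CPM in young serum replicates 1 to 4, and at 97.7, 119.8 and 88.4 CPM in EV-depleted serum replicates 2 to 4. The young serum libraries overlapped the saline ones, while every EV-depleted library lay below the lowest saline library. Group means were 238 ± 177 CPM (SD, n = 4) in saline, 115 ± 29.2 CPM (SD, n = 4) in young serum and 102 ± 16.1 CPM (SD, n = 3) in EV-depleted serum.

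H2-D1 encodes the D heavy chain, the other classical class I molecule of this strain. It lies on the same chromosome at 35262730 to 35267499, plus strand, and also has 8 exons. H2-D1 stood at 137, 153, 589.8 and 227 CPM in saline replicates 2, 3, 4 and 6, at 127, 143, 163 and 76.6 CPM in young serum replicates 1 to 4, and at 116, 128 and 89.2 CPM in EV-depleted serum replicates 2 to 4. The libraries stood in the same order as for H2-K1 from the highest to the lowest of 11, so the EV-depleted libraries again lay below all saline libraries and the young serum libraries did not. The means were 277 ± 212 CPM (SD, n = 4), 127 ± 37.1 CPM (SD, n = 4) and 111 ± 19.96 CPM (SD, n = 3) in saline, young serum and EV-depleted serum. The principal transcripts of the heavy chains are partly identical to those of other genes: 8.79% of the 50-base words of H2-K1 and 14.3% of those of H2-D1 occur in another gene's transcript, mostly other class I genes, so a part of their reads could have been split among these.

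B2m encodes the invariant light chain that every class I heavy chain needs to reach the surface. It lies outside the MHC, on chromosome 2 at 122147686 to 122153083, plus strand, with 4 exons in its principal transcript, and shares no 50-base word with another gene. B2m stood at 88.5, 96.6, 284 and 128 CPM in saline replicates 2, 3, 4 and 6, at 71.5, 92.8, 113 and 54.9 CPM in young serum replicates 1 to 4, and at 72.8, 86.8 and 74.7 CPM in EV-depleted serum replicates 2 to 4. As for the heavy chains, saline replicates 4 and 6 were the highest libraries, young serum replicate 4 the lowest, and the EV-depleted group lay wholly below saline. The means were 149 ± 91.5 CPM (SD, n = 4) in saline, 83.0 ± 25.2 CPM (SD, n = 4) in young serum and 78.1 ± 7.57 CPM (SD, n = 3) in EV-depleted serum. The whole of B2m lies inside Patl2, a gene on the opposite strand. Patl2 is absent from the deposited expression table, and whether reads were counted by strand is not stated in the labels.

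Tap1 and Tap2 encode the subunits of the transporter that moves peptides into the endoplasmic reticulum, and they are near neighbours in the MHC on chromosome 17, at 34187553 to 34197225 and 34203527 to 34216321, both on the plus strand. Their principal transcripts have 11 and 12 exons. Tap1 stood at 4.76, 5.67, 19.9 and 10.7 CPM in saline replicates 2, 3, 4 and 6, at 3.39, 5.53, 6.95 and 3.03 CPM in young serum replicates 1 to 4, and at 3.79, 6.07 and 2.87 CPM in EV-depleted serum replicates 2 to 4. Saline replicates 4 and 6 were the highest libraries, and both serum groups overlapped saline replicates 2 and 3. Tap2 stood at 13.3, 17.1, 43.7 and 19.2 CPM in saline replicates 2, 3, 4 and 6, at 11.7, 13.6, 14.1 and 11.1 CPM in young serum replicates 1 to 4, and at 13.8, 14.6 and 13.8 CPM in EV-depleted serum replicates 2 to 4. The serum libraries of Tap2 were close together, and of the saline libraries only replicate 2 fell within their range. Tap1 averaged 10.3 ± 6.94 CPM (SD, n = 4) in saline, 4.73 ± 1.85 CPM (SD, n = 4) in young serum and 4.24 ± 1.65 CPM (SD, n = 3) in EV-depleted serum. Tap2 averaged 23.3 ± 13.8 CPM (SD, n = 4), 12.6 ± 1.45 CPM (SD, n = 4) and 14.1 ± 0.451 CPM (SD, n = 3) in the same order. The start of Tap1 overlaps Psmb9, an immunoproteasome gene on the opposite strand, by 212 bases.

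Tapbp encodes tapasin, which bridges the empty class I molecule to the transporter. It lies on chromosome 17 at 33915899 to 33929292, plus strand, with 8 exons in its principal transcript. Tapbp stood at 39.4, 34.3, 84.2 and 39.1 CPM in saline replicates 2, 3, 4 and 6, at 38.9, 39.4, 40.3 and 32.9 CPM in young serum replicates 1 to 4, and at 38.3, 35.1 and 31.98 CPM in EV-depleted serum replicates 2 to 4. Apart from saline replicate 4, every library lay between 31.98 and 40.3 CPM and the groups overlapped. The means were 49.3 ± 23.4 CPM (SD, n = 4) in saline, 37.9 ± 3.38 CPM (SD, n = 4) in young serum and 35.1 ± 3.14 CPM (SD, n = 3) in EV-depleted serum. Tapbp overlaps Zbtb22, a gene on the same strand, by 3422 bases, and Zbtb22 itself stood at 18.0 to 22.7 CPM.

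Nlrc5 encodes the transactivator of class I genes, a member of the NLR family that is itself induced by interferon. It lies on chromosome 8 at 94434356 to 94527272, plus strand, and its principal transcript has 53 exons. Nlrc5 stood at 1.30, 1.95, 6.999 and 0.830 CPM in saline replicates 2, 3, 4 and 6, at 1.78, 2.39, 2.11 and 0.971 CPM in young serum replicates 1 to 4, and at 1.36, 1.19 and 1.501 CPM in EV-depleted serum replicates 2 to 4. It was the one gene of the 7 for which saline replicate 6 was the lowest library of all, and the saline range enclosed both serum groups. The means were 2.77 ± 2.86 CPM (SD, n = 4) in saline, 1.81 ± 0.614 CPM (SD, n = 4) in young serum and 1.35 ± 0.154 CPM (SD, n = 3) in EV-depleted serum. These levels correspond to 33.0 to 296 reads per library, so the counting precision is lower for Nlrc5 than for the other genes. The SE of its log2(CPM + 1) difference was not the largest of the 7. For young serum against saline it was 0.38, beside 0.40 for H2-D1.

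Levels of different genes can be compared only per length of transcript. Per kilobase of the principal transcript, mean levels over the 10 libraries other than saline replicate 4 were 102 ± 24.7 CPM (SD) for B2m, 75.2 ± 19.2 CPM for H2-K1, 64.7 ± 19.8 CPM for H2-D1, 12.8 ± 1.06 CPM for Tapbp, 4.13 ± 0.688 CPM for Tap2, 1.79 ± 0.801 CPM for Tap1 and 0.203 ± 0.0670 CPM for Nlrc5. The light chain and heavy chains thus lay well above the loading machinery, and the transactivator lay lowest. Each gene of this order was above the next in 11 of 11 libraries. The order of H2-K1 and H2-D1 rests on the chosen length: with all exons of each gene merged, H2-K1 was above H2-D1 in 0 of 11 libraries.

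Young serum was compared with saline by limma on log2(CPM + 1), with p-values adjusted by the Benjamini-Hochberg method over all 13187 genes and a gene called at an adjusted p under 0.05. The class I genes were lower on average in young serum, by 38.3% for Tap2 to 46.5% for H2-D1 among the heavy chains, B2m and the transporter, but none of the 7 was called, and 0% of all genes were. The difference for H2-K1 was -0.83 ± 0.37 (SE, limma adjusted p = 0.219) and that for H2-D1 was -0.90 ± 0.40 (limma adjusted p = 0.217). B2m differed by -0.72 ± 0.33 (limma adjusted p = 0.227), Tap1 by -0.84 ± 0.39 (limma adjusted p = 0.229) and Tap2 by -0.70 ± 0.28 (limma adjusted p = 0.196). Tapbp and Nlrc5 differed least, by -0.28 ± 0.23 (limma adjusted p = 0.475) and -0.19 ± 0.38 (limma adjusted p = 0.778). All 7 fitted differences were below 0, as were those of 52.5% of all genes, and their median was -0.72 against -0.02 over all genes. At an unadjusted p under 0.05, 4 of the 7 were lower (H2-K1, H2-D1, B2m and Tap2), against 11.4% of all genes. None of the 7 had a young serum group lying wholly below saline, against 6.08% of all genes.

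Without saline replicate 4, the young serum differences were about -0.39 for H2-K1, -0.45 for H2-D1, -0.36 for B2m, -0.48 for Tap1 and -0.36 for Tap2, and those of Tapbp and Nlrc5 changed sign, to 0.01 and 0.25. The median of the 7 was then -0.36, against 0.07 over all genes. Tap2 alone stayed below an unadjusted p of 0.05 (limma unadjusted p = 0.0278, adjusted p = 0.174), against 8.77% of all genes, and none of the 7 had groups that did not overlap, against 6.86%. In another fit limma weighted the libraries, with weights estimated from the spread of each library in these data. Saline replicates 2, 3, 4 and 6 received weights of 0.563, 3.32, 0.208 and 0.295, so replicate 3 counted most in the saline mean. Tap2 was then called, by -0.42 ± 0.15 (limma with array weights, adjusted p = 0.0491), but 26.1% of all genes were called with it. Without both saline replicates 4 and 6, H2-K1 differed by -0.23 ± 0.22 and Tap2 by -0.25 ± 0.14 (SE).

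EV-depleted serum was compared with saline in the same fit, and shares the saline libraries with the comparison above. The heavy chains and Tap1 again had the largest differences, and H2-K1, H2-D1 and B2m were lower in all 3 EV-depleted libraries than in any of the 4 saline libraries. None of the 7 was called, and 0% of all genes were. H2-D1 was lower by 52.0% on the log2(CPM + 1) scale, a difference of -1.06 ± 0.43 (SE, limma adjusted p = 0.404). H2-K1 differed by -0.98 ± 0.40 (limma adjusted p = 0.404), Tap1 by -0.96 ± 0.42 (limma adjusted p = 0.411) and B2m by -0.76 ± 0.35 (limma adjusted p = 0.416). Tap2, Tapbp and Nlrc5 differed by -0.55 ± 0.30, -0.38 ± 0.25 and -0.43 ± 0.41 (SE). All 7 differences were below 0, as were 50.4% of all genes, with a median of -0.76 against -0.00 over all genes. At an unadjusted p under 0.05, 3 of the 7 were lower (H2-K1, H2-D1 and Tap1), against 5.59% of all genes, and 3 of the 7 had groups that did not overlap, against 4.03%.

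Saline replicate 4 is the highest library, so leaving it out could not change the separation of H2-K1, H2-D1 and B2m from saline. Without it, 4.51% of all genes were lower with no overlap. The sizes of the differences did change. Without that library they were -0.54 ± 0.23 for H2-K1, -0.61 ± 0.28 for H2-D1, -0.40 ± 0.24 for B2m and -0.59 ± 0.34 for Tap1, and Nlrc5 moved to 0.02. H2-K1 and H2-D1 then stayed below an unadjusted p of 0.05 (limma unadjusted p = 0.0350 and 0.0496, adjusted p = 0.362 and 0.364), against 3.59% of all genes. The gap to the nearest saline library was narrow: 119.8 against 125 CPM for H2-K1, 128 against 137 CPM for H2-D1 and 86.8 against 88.5 CPM for B2m.

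**Figure D2:**
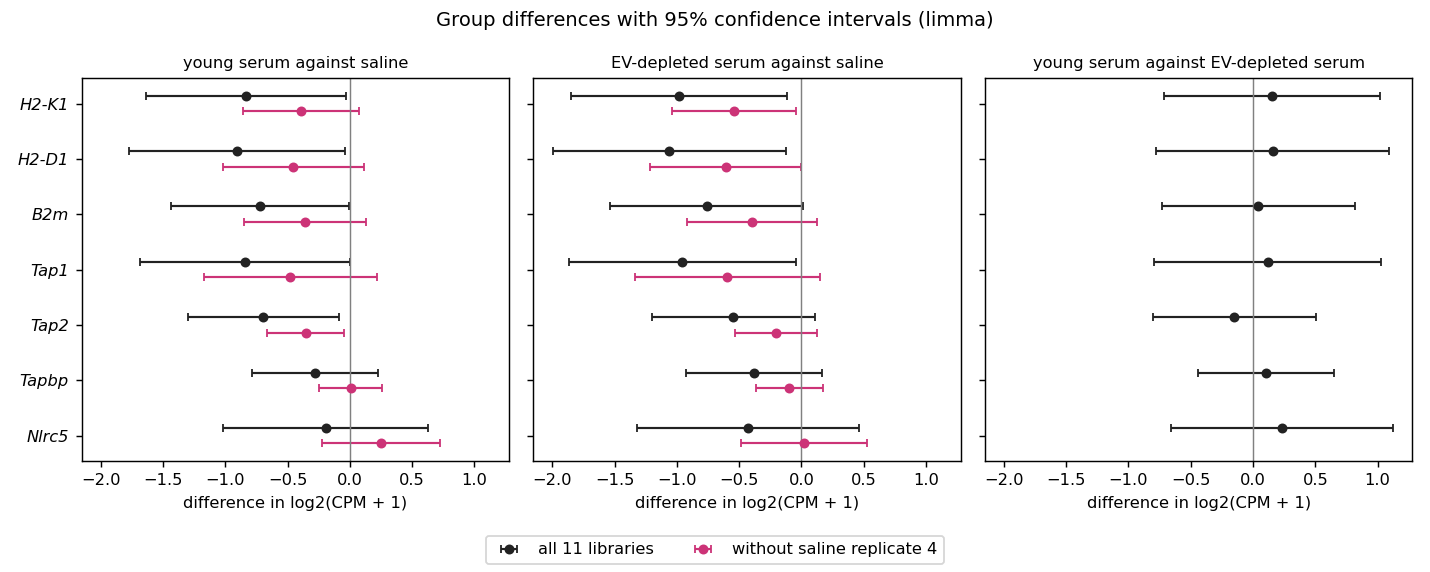
Differences in log2(CPM + 1) of the 7 class I genes for young serum against saline, EV-depleted serum against saline and young serum against EV-depleted serum, with 95% confidence intervals from limma. Points are drawn for all 11 libraries and, in the comparisons with saline, without saline replicate 4, where the differences of H2-K1, H2-D1, B2m, Tap1 and Tap2 are smaller and those of Tapbp and Nlrc5 lie near or above 0.

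Young serum with and without its EVs was compared directly. None of the 7 class I genes was called and 0% of all genes were. At an unadjusted p under 0.05 none of the 7 was higher or lower, against 0.478% and 1.75% of all genes, and every gene of the 7 overlapped between the groups, against 1.96% of all genes lying wholly higher and 4.16% wholly lower. The difference was 0.15 for H2-K1 (95% confidence interval -0.71 to 1.02), 0.16 for H2-D1 (-0.78 to 1.09) and 0.04 for B2m (-0.73 to 0.82). For Tap1 it was 0.12 (-0.79 to 1.03), for Tap2 -0.15 (-0.81 to 0.51), for Tapbp 0.10 (-0.44 to 0.65) and for Nlrc5 0.23 (-0.66 to 1.12). These intervals hold differences as large in size as those seen between either serum and saline for every gene of the 7, so equal levels under the 2 sera were not shown.

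With both serum groups set against saline, the 7 serum libraries gave the narrowest errors. Again none of the 7 was called, and 0.0152% of all genes were, namely 3425401B19Rik and Nrap, which are named here after their values were seen. H2-K1 differed by -0.91 ± 0.33 (SE, limma adjusted p = 0.164), H2-D1 by -0.98 ± 0.35 (limma adjusted p = 0.164) and Tap1 by -0.90 ± 0.34 (limma adjusted p = 0.169). B2m differed by -0.74 ± 0.29 (limma adjusted p = 0.175) and Tap2 by -0.62 ± 0.25 (limma adjusted p = 0.176). Tapbp and Nlrc5 differed by -0.33 ± 0.21 and -0.31 ± 0.34 (limma adjusted p = 0.326 and 0.575). All 7 lay below 0, as did 51.5% of all genes. At an unadjusted p under 0.05, 5 of the 7 were lower, against 11.5% of all genes, and none had serum libraries wholly below saline, against 1.7%. The median of the 7 was -0.74, against -0.01 over all genes, and -0.38 against 0.07 without saline replicate 4. At an unadjusted p under 0.05, 3 of the 7 were lower without saline replicate 4, against 8.17% of all genes, 4 without saline replicate 6, against 8.42%, and 0 without both, against 2.9%. Of all genes, 40.7% were below 0 without saline replicate 4. These shares also apply to the gene lists that follow.

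The genes of the route kept different proportions to one another across libraries. H2-D1 over H2-K1, the ratio of their CPM within a library, stayed between 0.961 and 1.23 with a coefficient of variation of 7.33%, while H2-D1 itself spanned 7.70-fold. B2m over H2-K1 ran from 0.567 in saline replicate 4 to 0.845 in EV-depleted serum replicate 4, so the light chain was least abundant relative to the heavy chain where both were highest. Tapbp over H2-K1 was also lowest in saline replicate 4, at 0.168, and highest in young serum replicate 4, at 0.412. Saline replicate 6 stood out in another way: Tap1 over H2-K1 was highest there, at 0.0583, and Nlrc5 over H2-K1 lowest, at 0.00450, against a median of 0.0139. Nlrc5 over Tap1 ranged 6.80-fold, from 0.0773 in saline replicate 6 to 0.526 in young serum replicate 1. The transactivator was thus not high in every library in which the other genes were.

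**Figure D3:**
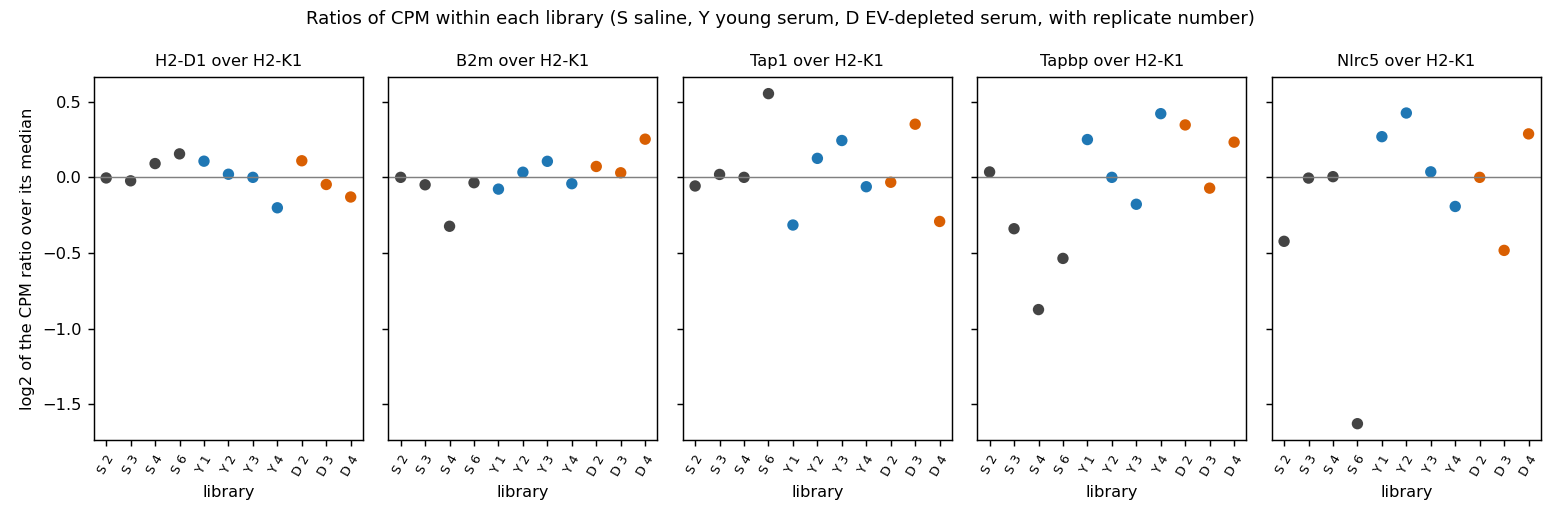
Log2 of the CPM ratio of H2-D1, B2m, Tap1, Tapbp and Nlrc5 to H2-K1 within each library, set against the median ratio of the 11 libraries, with 1 point per library (S saline, Y young serum, D EV-depleted serum, with replicate number). H2-D1 keeps nearest to the line at 0, and the lowest Nlrc5 point is saline replicate 6.

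Across the 11 libraries, log2(CPM + 1) of H2-K1 and H2-D1 gave Pearson r = 0.993, and the 21 pairs of the 7 genes ran from 0.641 to 0.993 with a median of 0.917. Without saline replicate 4 the 21 pairs ran from -0.134 to 0.980 with a median of 0.689. H2-K1 with B2m and with Tap1 then still gave 0.964 and 0.950, while H2-K1 with Nlrc5 went from 0.796 to 0.110. These are descriptions over libraries that share groups, scaling and cell content. By the mean of their standardised levels, the 8 named genes most alike over 11 libraries, out of 11729, were Evl (r = 0.982), Ptk2b (0.979), Shisa5 (0.979), Ccnd3 (0.977), Dgat1 (0.973), Prkcsh (0.972), Tuba1c (0.971) and Fabp4 (0.971). Without saline replicate 4, those 8 took ranks 9 to 64, and the first 8 were Irf1 (0.918), Ly6e, Cd74, Gbp2, H2-Aa, Psmb8, Psmb9 and H2-Q4 (0.899). That library thus changed the order at the top of the list. Of the 8, Fabp4 and Dgat1, a fatty acid binding protein and a triglyceride synthase of adipocytes, moved furthest, to ranks 64 and 45, and Ptk2b and Evl least, to ranks 9 and 12.

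The nonclassical class I chains, which bind B2m but present few or special ligands, followed the classical ones. Of 13 tested, 12 were lower with both sera than with saline, beside 51.5% of all genes, 8 of them at an unadjusted p under 0.05, beside 11.5% of all genes, and none was called. That 8 became 6 when saline replicate 4 or saline replicate 6 was left out, and 2 when both were. Their median difference was -0.74, and -0.44 without saline replicate 4. H2-T10, a ligand of gamma delta T cells, differed by -0.74 ± 0.19 (SE, limma adjusted p = 0.143). Every serum library lay below every saline library, as for 1.7% of all genes, but H2-T10 stood at only 0.401 to 0.604 CPM in the serum groups and 0.749 to 2.93 CPM in saline. It reached 1 CPM only in saline replicates 3, 4 and 6, so it passed the filter through saline alone. That selection favours lower values with serum, so no conclusion is drawn from its difference, its separation or its place in the counts above. Fcgrt, the neonatal Fc receptor chain, differed by -0.73 ± 0.22 (limma adjusted p = 0.146), and by -0.44 ± 0.13 without saline replicate 4. H2-Q6 and H2-Q7, Qa-2 genes, differed by -1.12 ± 0.34 and -1.09 ± 0.35 (limma adjusted p = 0.147 and 0.152), and H2-T23, which encodes Qa-1, a ligand of NK receptors, by -0.91 ± 0.29 (limma adjusted p = 0.152). H2-M2 stood below the filter, at no more than 0.176 CPM, and gave exact two-sided permutation p-values of 0.714 for young serum against saline, 0.571 for EV-depleted serum against saline and 0.571 between the sera. H2-Q6, H2-Q7 and H2-D1 share sequence, so reads may have been split among them.

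The immunoproteasome replaces the constitutive catalytic subunits in cells exposed to interferon and yields peptides suited to class I. All 5 of its genes tested were lower with both sera, beside 51.5% of all genes, and at an unadjusted p under 0.05, beside 11.5%, and none was called. At that p, 3 of the 5 were lower when saline replicate 4 or saline replicate 6 was left out, and 0 when both were. Psmb8, whose subunit takes the place of Psmb5, stood at 6.55, 7.23, 31.1 and 15.9 CPM in saline replicates 2, 3, 4 and 6, at 6.13, 7.55, 7.49 and 3.55 CPM in young serum replicates 1 to 4 and at 5.05, 7.39 and 4.58 CPM in EV-depleted serum replicates 2 to 4. Only saline replicates 4 and 6 lay outside the serum range. Psmb8 and Psmb9 differed by -1.002 ± 0.36 and -0.99 ± 0.33 (limma adjusted p = 0.164 and 0.154), Psmb10 by -0.70 ± 0.26 (limma adjusted p = 0.166), and the activator subunits Psme1 and Psme2 by -0.65 ± 0.18 and -0.73 ± 0.20 (limma adjusted p = 0.146 and 0.143). Their median was -0.73, and -0.59 without saline replicate 4, where Psmb8 differed by -0.59 ± 0.28. The 3 constitutive counterparts were lower too, Psmb5 by -0.55 ± 0.20, Psmb6 by -0.39 ± 0.15 and Psmb7 by -0.23 ± 0.10 (limma adjusted p = 0.164, 0.168 and 0.202), and these were highest in saline replicate 6 rather than in replicate 4: Psmb5 stood at 297 CPM there and at 99.5 to 149.9 CPM in the other 10 libraries. Their median went from -0.39 to -0.45 without saline replicate 4 and to -0.21 without saline replicate 6, and the number lower at an unadjusted p under 0.05 went from 3 to 3 and to 1. Psmb8 over Psmb5 ran from 0.0340 in young serum replicate 4 to 0.212 in saline replicate 4.

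The wider loading machinery did not follow the 7 genes in direction. Of 12 genes tested (peptide trimming, folding and translocation in the endoplasmic reticulum), 6 were higher and 6 lower with both sera, with a median of -0.00. Without saline replicate 4, 9 were higher and 3 lower, with a median of 0.20. Uggt1, which checks glycoprotein folding, differed by 0.40 ± 0.15 and the translocon subunit Sec61b by -0.48 ± 0.20 (limma adjusted p = 0.165 and 0.189). The chaperones Calr, Canx and Pdia3 differed by -0.09 ± 0.11, 0.23 ± 0.13 and -0.30 ± 0.19, and Erap1, which trims peptides for class I, by 0.15 ± 0.19 (limma adjusted p = 0.638, 0.288, 0.327 and 0.623). Calr, Canx, Pdia3 and Erap1 differed by 0.012, 0.34, -0.10 and 0.36 when saline replicate 4 was left out. None was called.

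Regulators of class I and of interferon signalling were also divided: of 21 tested, 10 were higher and 11 lower with both sera, with a median of -0.01. Without saline replicate 4, 13 were higher and 8 lower, with a median of 0.10 against 0.07 over all genes. Irf1, an interferon-induced factor that binds class I and Tap1 promoters, was lower by -0.61 ± 0.22 (limma adjusted p = 0.163), with 8.78, 8.41, 20.01 and 11.5 CPM in saline replicates 2, 3, 4 and 6, 5.81 to 10.05 CPM in young serum and 6.53 to 7.43 CPM in EV-depleted serum. Its EV-depleted libraries lay below all saline libraries, as for 4.03% of all genes. Irf1 differed by -0.36 ± 0.16 for both sera when saline replicate 4 was left out. Jak2, a kinase of the interferon gamma receptor, was higher by 0.61 ± 0.20 and Jak1 by 0.38 ± 0.18 (limma adjusted p = 0.154 and 0.229). Ifnar2, a chain of the type I interferon receptor, differed by -0.62 ± 0.28 (limma adjusted p = 0.209), and by -0.24 without saline replicate 4. Rfx5, a DNA-binding subunit at the X box, differed by 0.25 ± 0.18 (limma adjusted p = 0.398).

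Of 28 interferon-induced genes tested, 24 were lower and 4 higher with both sera, beside 51.5% of all genes lower, and 8 were lower at an unadjusted p under 0.05, beside 11.5%. Leaving out saline replicate 4 took that 8 to 6, leaving out replicate 6 kept the count at 8, and leaving out both took it to 2. The median was -0.38, and -0.20 without saline replicate 4, and none was called. Irf7 differed by -0.91 ± 0.25, Bst2 (tetherin) by -0.79 ± 0.22, Ifitm3 by -0.55 ± 0.17 and Ifi35 by -0.44 ± 0.14 (limma adjusted p = 0.143, 0.146, 0.149 and 0.152). For 2 of the 28, Bst2 and Ifitm3, every serum library lay below every saline library, as for 1.7% of all genes: Bst2 stood at 11.7 to 21.9 CPM in saline and 4.98 to 11.6 CPM in the serum groups, and Ifitm3 at 31.6 to 45.3 CPM and 16.5 to 29.9 CPM. Mx1 and Mx2 stayed under 1 CPM in all libraries.

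MHC class II genes, which present peptides from outside the cell and are mainly expressed by professional antigen-presenting cells, were lower with the sera as well. All 7 of the class II genes tested were below saline with both sera at an unadjusted p under 0.05, beside 11.5% of all genes, and none was called. Leaving out saline replicate 4 took the count to 6, leaving out replicate 6 kept it at 7, and leaving out both took it to 2. The median was -1.52, -1.02 without saline replicate 4 and -0.69 without both. Cd74, the class II invariant chain, stood at 61.8, 87.8, 403 and 152 CPM in saline replicates 2, 3, 4 and 6, at 26.8 to 85.9 CPM in young serum and at 29.2 to 42.3 CPM in EV-depleted serum. All 7 class II genes lay wholly below saline in the EV-depleted group, beside 4.03% of all genes. Saline replicate 4 was the highest library for all 7, so leaving it out could not change this. Without it the share of all genes was 4.51%. Cd74 differed by -1.59 ± 0.45, H2-Ab1 by -1.72 ± 0.46, H2-Eb1 by -1.52 ± 0.41 and H2-DMb1, a peptide exchange factor, by -1.02 ± 0.28 (limma adjusted p = 0.146, 0.143, 0.143 and 0.146). The difference in size between class I and class II was not tested.

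**Figure D4:**
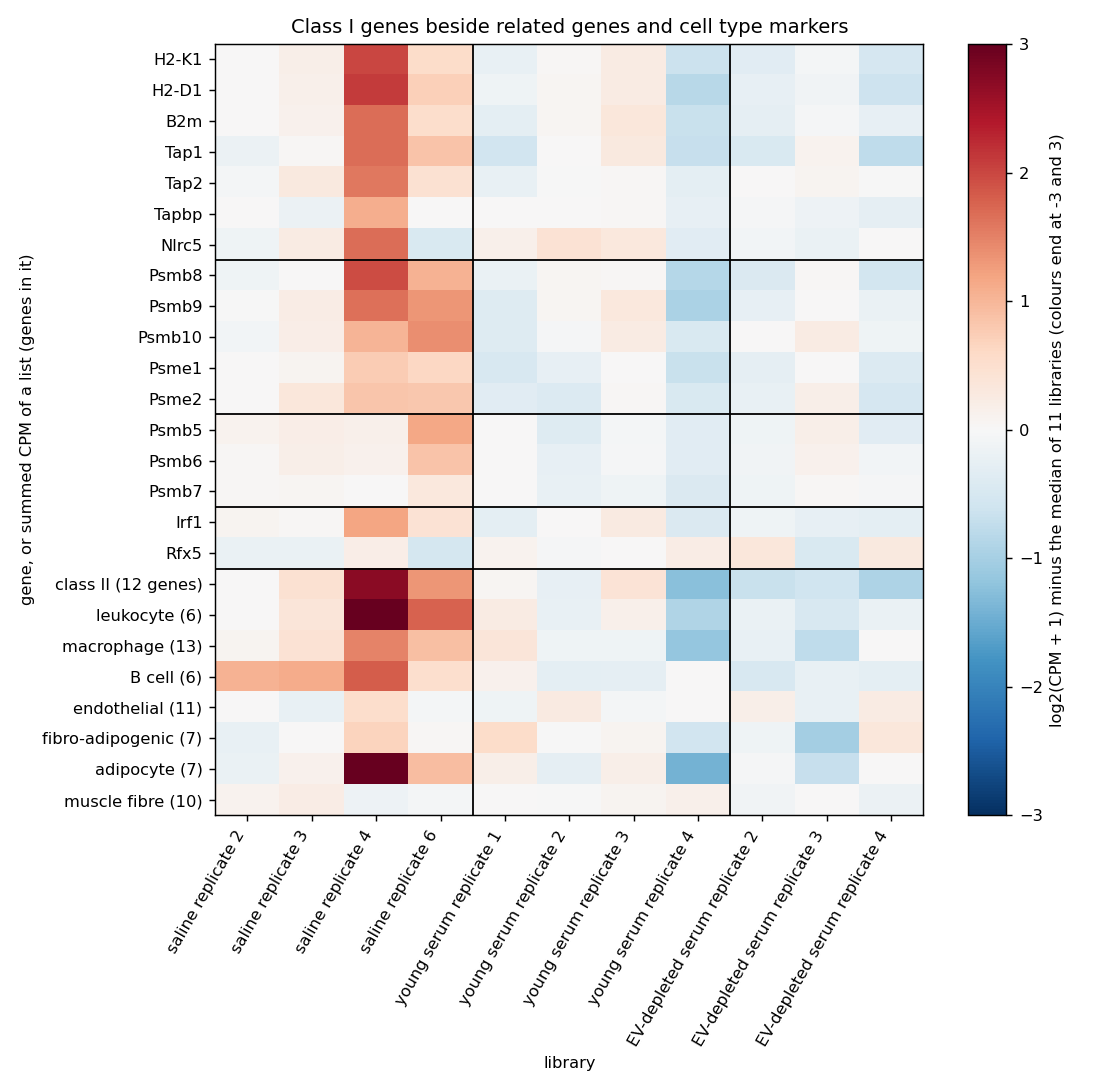
Log2(CPM + 1) of the 7 class I genes, of immunoproteasome, constitutive proteasome and regulator genes, and of the summed CPM of class II and cell type marker lists, each set against its median of the 11 libraries, with libraries in columns. The class I genes, class II and the leukocyte and adipocyte lists are darkest red in saline replicate 4, whereas Psmb5, Psmb6 and Psmb7 are reddest in saline replicate 6.

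Leukocyte and macrophage markers were lower with both sera on average, as the class I genes were, and their part in the differences was not tested. Of the 6 leukocyte markers, 6 were highest in saline replicate 4 and all 6 were lower on average with both sera, and they summed to 18.7 and 24.6 CPM in saline replicates 2 and 3, 9.55 to 22.5 CPM in young serum and 13.2 to 16.2 CPM in EV-depleted serum. Ptprc, the pan-leukocyte CD45, stood at 2.26, 2.54, 12.6 and 6.13 CPM in saline replicates 2, 3, 4 and 6. The 13 macrophage markers, 13 of which were lower with both sera, summed to 138 to 372 CPM in saline, 57.9 to 169.6 CPM in young serum and 77.4 to 132 CPM in EV-depleted serum. Of the 12 T and NK cell markers 9 were in the table and 1 passed the filter, and they summed to 2.27 to 39.5 CPM in saline, 1.38 to 3.15 CPM in young serum and 1.19 to 2.503 CPM in EV-depleted serum, with Cd8a at the table's lowest value of 0.0001 CPM in 5 libraries and at 3.10 CPM in saline replicate 4. The B cell markers summed to 245 to 608 CPM in saline, 139 to 187 CPM in young serum and 123 to 147 CPM in EV-depleted serum, and Cd79a stood at 62.9 and 8.72 CPM in saline replicates 4 and 6 against at most 0.545 CPM elsewhere. The 3 neutrophil markers in the table summed to no more than 2.30 CPM.

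Endothelial and muscle fibre markers were divided in direction. With saline replicate 4 included, most fibro-adipogenic markers were lower with both sera. The 11 endothelial markers, a cell type with high class I, summed to 335 to 564 CPM in saline, 358 to 472 CPM in young serum and 337 to 467 CPM in EV-depleted serum, and 6 of 11 were lower with both sera. The 7 markers of fibro-adipogenic progenitors, the stromal cells of muscle, summed to 403 to 748 CPM, 318 to 697 CPM and 232 to 599 CPM, with 6 of 7 lower with both sera. That count includes saline replicate 4, which was the highest library for 3 of these 7. No contrast with the endothelial or muscle fibre lists is therefore drawn from it. The adipocyte sums were 234, 296, 5671 and 515 CPM in saline replicates 2, 3, 4 and 6, 101 to 308 CPM in young serum and 167 to 270.1 CPM in EV-depleted serum. The 10 muscle fibre markers summed to 174232 to 223690 CPM in saline, 190930 to 213260 CPM in young serum and 169455 to 192966 CPM in EV-depleted serum, with 5 of 10 lower. Over the 10 libraries without saline replicate 4, the mean standardised level of the 7 class I genes was set against each summed list. It gave r = 0.902 with class II, 0.863 with the immunoproteasome, 0.860 with the nonclassical chains, 0.856 with the interferon-induced genes and 0.666 with the constitutive proteasome genes. The regulators gave -0.505 and the loading and folding genes -0.620. Such sums follow their most abundant genes, for the regulators Jak1 at 72.9 to 179 CPM. Single regulators could differ from the sum: Irf1 gave 0.918. Among the cell type markers, r was 0.760 for leukocytes, 0.742 for adipocytes, 0.675 for macrophages, 0.632 for T and NK cells and 0.566 for neutrophils. It was 0.299 for B cells, 0.181 for fibro-adipogenic progenitors, 0.0973 for muscle fibres and -0.269 for endothelium. These values describe libraries that share groups and scaling.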

How the data were processed

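The libraries were made from total RNA of tibialis anterior, and FastQC, STAR, DESeq2 and mm10 are listed, with no versions, in the submitters' processing notes. The authors deposited 2 tables of the same 18269 genes, in CPM and in TPM. The deposited TPM values equal CPM divided by the genomic span of each gene, so levels were not compared by them. In the deposited CPM table, 75.3% to 78.8% of the low values checked (under 1 CPM) were whole reads within 0.1 read, so no count model was run.

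The 7 genes and all gene lists were chosen with earlier results of these data known. Samples were grouped by their titles. Values were tested as log2(CPM + 1) with limma 3.58.1 in R 4.3.3 (1 fit of 3 groups, empirical Bayes with trend, two-sided, Benjamini-Hochberg over 13187 genes that reached 1 CPM in 3 or more libraries). A fold on this scale understates that of low genes. The script was tested on simulated data. H2-M2, below the filter, was tested by exact permutation. Named beside the 7 genes were up to 4 genes per list with the smallest unadjusted p for both sera against saline, certain genes set by name (proteasome, Erap1, Calr, Canx, Pdia3, Irf1, Rfx5, H2-Q7, H2-T23; another is not reported here), the defining cell type markers, and the 8 genes most alike. Alternatives were a pseudocount of 0.1, no filter and a filter at 5 CPM, median-of-ratios rescaling, array weights, fits of the compared groups alone, no trend, the replicate number as a block, and leaving out each library or saline replicates 4 and 6. Positions and exons came from GENCODE M21 and promoter windows from RefSeq. Ratios, correlations and sums were made in Python 3.11.15 with pandas 2.3.3, scipy 1.17.1 and matplotlib 3.10.9.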

Additional observations from a re-analysis of the deposited data

Results flagged for a closer look

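Of 138 sets of 4 libraries (single genes, ratios and list sums in the saline and young serum groups), 13 had their highest or lowest library separated from the nearest other by a larger share of the whole range than Dixon's 95% limit for 4 values allows. Chance alone passes this limit in about 1 of 20 sets, and the sets share libraries and genes. Saline replicate 4 was the separate library in 6 of them. It stood high for H2-K1 (0.842 of the range), Tapbp (0.898), Ifnar2 (0.830), the ratio of Psmb8 to Psmb5 (0.958) and the summed adipocyte markers (0.948), and low for the ratio of B2m to H2-K1 (0.833). Saline replicate 6 was separate in 5. It stood high for the constitutive proteasome genes Psmb5 (0.941), Psmb6 (0.864) and Psmb7 (0.879), for their sum (0.916) and for the ratio of Tap1 to H2-K1 (0.897). Young serum replicate 4 stood low for Ifitm3 (0.947), and young serum replicate 1 stood high for the summed class I regulators and interferon signalling genes (0.833).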

How the results depend on the processing

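None of the 7 class I genes was called under any alternative but 1: with array weights, 1 gene (Tap2) was called for young serum against saline. Counts over all genes moved much more. With array weights 3441 genes were called for young serum against saline, 1794 for EV-depleted serum against saline, 24 between the sera and 3602 for both sera against saline. For EV-depleted serum against saline the count went from 0 to 3 with a filter at 5 CPM, 2 without saline replicates 4 and 6 together, and 0 to 5 when 1 library was left out. For both sera it went from 2 to 0 with no filter, with median-of-ratios rescaling or without the trend, to 1 without saline replicates 4 and 6, and to 0 to 994 with 1 library left out. For young serum the range with 1 library left out was 0 to 251. Both upper ends came without saline replicate 2. The causes were not tested.

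Signs changed in Tapbp, Nlrc5, B2m and Tap1. For young serum against saline, Tapbp was 0.044 with array weights and 0.037 without saline replicates 4 and 6, and ran from -0.42 to 0.0078 with 1 library left out. Nlrc5 was 0.083 without saline replicates 4 and 6 and ran from -0.46 to 0.25. For EV-depleted serum against saline, Tapbp was 0.021 with array weights and Nlrc5 ran from -0.69 to 0.021. For both sera, Tapbp was 0.033 with array weights and Nlrc5 ran from -0.57 to 0.14. The positive ends of Nlrc5 and Tapbp came without saline replicate 4. Between the sera, B2m ran from -0.12 to 0.22 and Tap1 from -0.080 to 0.36, with the sign changed without young serum replicate 2 (B2m), young serum replicate 3 (both), EV-depleted serum replicate 2 (B2m) and EV-depleted serum replicate 4 (Tap1).

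The labels give the groups shared replicate numbers, but same-numbered libraries did not deviate together (r from -0.28 to 0.30). With the replicate block, H2-K1 differed by -0.84 ± 0.49 (SE) for young serum and -1.02 ± 0.49 for EV-depleted serum, no class I gene was called, and 6 genes were called for EV-depleted serum against saline. Nlrc5, at 33.0 to 296 reads per library, is the gene that depth limits most.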
